A study of Mus musculus with 14 samples.

Results

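The sarcomere and calcium handling genes are a listed set of 59 mouse genes that encode the contractile filaments of striated muscle, the proteins that anchor and build them, and the channels and pumps that move calcium in muscle cells. They were taken as a given list of names, 59 of the 21900 protein-coding genes of the gene table used here. These names were chosen with earlier results of these data known. A gene was called bound in a peak list when the centre of a peak lay within 5 kb of a start of the gene. Of the 59 genes, 57 could be tested, along with 20682 protein-coding genes in all. The other two, Tmod1 and Tpm2, lie in a stretch of chromosome 4 where the peaks could not be placed on the gene table.

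Binding of the proteins Sin3A and Sin3B was mapped by chromatin immunoprecipitation and sequencing (ChIP-seq) in C2C12 cells, a mouse myoblast line of C3H background, before and after differentiation. Myoblasts were grown in 10% fetal bovine serum. Myotubes came from confluent cultures kept in 2% horse serum and were parted from the remaining undifferentiated cells with diluted trypsin. Sin3A was precipitated in 2 myoblast and 2 myotube samples, and Sin3B in 2 myoblast and 5 myotube samples. The 2 Sin3A myoblast samples used different antibody lots, 1 of which also served for the Sin3A myotube samples, and all Sin3B samples shared another lot. The labels give the same catalogue number for the Sin3A and the Sin3B antibody. Another 3 samples are input DNA and were not analysed here. All samples come from 1 cell line, and the labels name no genetic change in it.

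The 11 immunoprecipitated samples hold 4 distinct peak lists, since the files of samples with the same protein and stage are identical, so each group counts as 1 list and has no replicate spread. The lists hold 691 peaks (Sin3A, myoblasts), 759 peaks (Sin3A, myotubes), 2387 peaks (Sin3B, myoblasts) and 3769 peaks (Sin3B, myotubes). They give positions only, with no height, score or read count, so depth is unknown, no comparison below carries a test, and a site bound in fewer cells cannot be told apart from a site bound more weakly. Positions of peaks are those of the files, whose genome build the labels do not name. They were placed on the gene table (GRCm38.p6) by 1 shift per 10 Mb block, chosen to put most peaks within 1 kb of a gene start. After the shift 81.2% of the placed peaks lay that near, beside 9.78% before it. Since the shifts were fitted to this share, the rise is no check of the placement. Even where a block's shift is right, distances are uncertain on the scale of a peak's width. Between kept blocks of chromosome 16, the finer shift that centres peaks on starts ran from -200 to 22 bp. Where few peaks guide a block, the shift itself may be wrong, by kilobases or more. Of the 258 blocks kept, 193 share their shift with a neighbouring block, and 45 of the 57 members lie in these. Sin3B in myotubes had a peak at 12 of those 45 (26.7%, with 19.6% of all genes there), and the bound members outside them are Tnnc1, Actn3, Pdlim3 and Des. The block of Des and Obsl1 was placed by 22 of its 41 peaks, and its next best shift would have placed 19. In the block of Neb, 2 shifts placed 9 peaks each, so its position was not settled. The lists hold no expression values, so the cells could not be checked against muscle markers.

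Skeletal muscle contracts when myosin of the thick filament pulls on actin of the thin filament. Calcium released from the sarcoplasmic reticulum binds troponin on the thin filament and lets this happen, and pumps then return the calcium to the store. Most of these genes are silent or low in proliferating myoblasts and are switched on when myoblasts fuse into myotubes, under the control of the E-box binding MyoD family together with MEF2, SRF and TEAD factors. The paralogs Sin3A and Sin3B act as scaffolds on which histone deacetylases are assembled, in a complex best known for repressing genes.

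Sin3B in myotubes marked members whose promoters have few CpG dinucleotides as well as a few with many, and the sequences of 5 such promoters show that contrast. Each is the 250 bases before the gene start, 5′ to 3′ along the gene, from RefSeq on GRCm38.p6, with every CpG in capitals. Tnnc1 (slow and cardiac troponin C) and Mybph (myosin binding protein H) have none, Ttn (titin) has 4, Myl4 (the embryonic and atrial essential light chain) has 23 and Flnc (filamin C) has 24. The Sin3B peak at Myl4 also lies at a start of Cdc27 and cannot be assigned to 1 of these genes.
Tnnc1, chr14:31208062-31208311, plus strand: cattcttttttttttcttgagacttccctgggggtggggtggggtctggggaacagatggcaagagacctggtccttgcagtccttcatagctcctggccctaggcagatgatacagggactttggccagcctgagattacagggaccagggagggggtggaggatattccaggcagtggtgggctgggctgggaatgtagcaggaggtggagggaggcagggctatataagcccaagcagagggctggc
Mybph, chr1:134193198-134193447, plus strand: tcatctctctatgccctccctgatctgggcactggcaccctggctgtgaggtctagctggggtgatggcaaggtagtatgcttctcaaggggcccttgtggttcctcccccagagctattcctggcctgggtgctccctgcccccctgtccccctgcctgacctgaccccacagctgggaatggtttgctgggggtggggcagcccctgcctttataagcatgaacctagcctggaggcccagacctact
Ttn, chr2:76982548-76982797, minus strand: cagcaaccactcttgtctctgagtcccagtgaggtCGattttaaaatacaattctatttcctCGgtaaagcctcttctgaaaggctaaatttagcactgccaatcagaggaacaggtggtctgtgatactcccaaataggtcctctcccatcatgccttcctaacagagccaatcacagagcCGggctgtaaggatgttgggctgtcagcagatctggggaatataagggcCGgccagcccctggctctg
Myl4, chr11:104550413-104550662, plus strand: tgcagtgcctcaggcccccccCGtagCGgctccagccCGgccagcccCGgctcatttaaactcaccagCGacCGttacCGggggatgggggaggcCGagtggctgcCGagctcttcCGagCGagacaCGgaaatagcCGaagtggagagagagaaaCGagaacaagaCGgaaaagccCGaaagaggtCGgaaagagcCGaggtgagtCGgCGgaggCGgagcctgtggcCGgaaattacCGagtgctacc
Flnc, chr6:29433006-29433255, plus strand: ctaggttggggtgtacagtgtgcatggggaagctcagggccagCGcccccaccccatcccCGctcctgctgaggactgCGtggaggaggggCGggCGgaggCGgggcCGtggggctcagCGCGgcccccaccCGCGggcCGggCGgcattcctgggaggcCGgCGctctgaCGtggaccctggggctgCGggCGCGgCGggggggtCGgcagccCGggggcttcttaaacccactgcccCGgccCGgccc

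A further 4 promoters of members with Sin3B in myotubes carry a motif of a muscle regulator, shown in capitals. Des (desmin) carries 2 E-boxes (CANNTG), of which the CAGCTG form starts 36 bases before the gene start. Acta1 (skeletal alpha-actin) carries a CArG box, the motif of SRF, at 73 bases, and Casq2 (calsequestrin 2) a MEF2 motif at 69 bases. Ankrd1 (a titin-associated ankyrin repeat protein) carries 2 MCAT motifs (CATTCC, the motif of TEAD factors), both on the other strand, at 210 and 123 bases. The printed bases lie upstream of these starts, but the nearest Sin3B myotube peaks are centred downstream. They lie at 0.316 kb (Des), 0.481 kb (Ankrd1), 1.75 kb (Acta1) and 1.76 kb (Casq2), so no peak is centred on the motifs shown.
Des, chr1:75360042-75360291, plus strand: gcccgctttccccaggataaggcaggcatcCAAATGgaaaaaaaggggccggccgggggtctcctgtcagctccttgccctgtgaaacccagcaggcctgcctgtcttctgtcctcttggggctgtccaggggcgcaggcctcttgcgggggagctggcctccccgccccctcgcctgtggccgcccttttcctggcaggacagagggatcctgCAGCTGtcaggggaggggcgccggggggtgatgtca
Acta1, chr8:123894776-123895025, minus strand: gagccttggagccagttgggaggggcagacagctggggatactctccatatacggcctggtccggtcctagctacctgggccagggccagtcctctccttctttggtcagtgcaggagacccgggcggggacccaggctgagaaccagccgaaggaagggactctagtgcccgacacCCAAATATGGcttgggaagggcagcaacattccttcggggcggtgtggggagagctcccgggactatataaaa
Casq2, chr3:102086165-102086414, plus strand: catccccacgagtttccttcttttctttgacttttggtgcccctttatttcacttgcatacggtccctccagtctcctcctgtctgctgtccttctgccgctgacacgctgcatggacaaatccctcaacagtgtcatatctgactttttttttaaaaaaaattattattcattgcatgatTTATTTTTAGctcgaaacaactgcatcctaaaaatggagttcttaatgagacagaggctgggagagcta
Ankrd1, chr19:36119845-36120094, minus strand: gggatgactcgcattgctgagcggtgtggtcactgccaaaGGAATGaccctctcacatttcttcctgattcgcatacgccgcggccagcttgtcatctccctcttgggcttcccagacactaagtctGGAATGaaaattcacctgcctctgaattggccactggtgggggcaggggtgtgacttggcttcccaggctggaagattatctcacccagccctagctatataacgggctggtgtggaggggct
A match is a description of the letters only; factor binding at these motifs was not measured.

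Sin3B in myotubes was the list that held most of the members' peaks. It had a peak at 16 of 57 members (28.1%), where the share of all protein-coding genes was 18.6%. Sin3B in myoblasts had a peak at 2 of 57 (3.51%), below the 12.2% of all genes, and these 2, Tpm3 and Ankrd1, were also bound in myotubes. Sin3A had a peak at 0 of 57 members in myoblasts (2.22% of all genes) and at 2 of 57 in myotubes (3.51%, with 4.13% of all genes), namely Myl4 and Atp2a2, both of which also had a Sin3B peak there (3.59% of all genes had both proteins in myotubes). Every member with a peak in any list therefore had a Sin3B myotube peak, 16 of 57 in all (28.1%, with 22.9% of all genes in any list), and 41 members (71.9%, with 77.1% of all genes) had none.

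**Figure D1:**
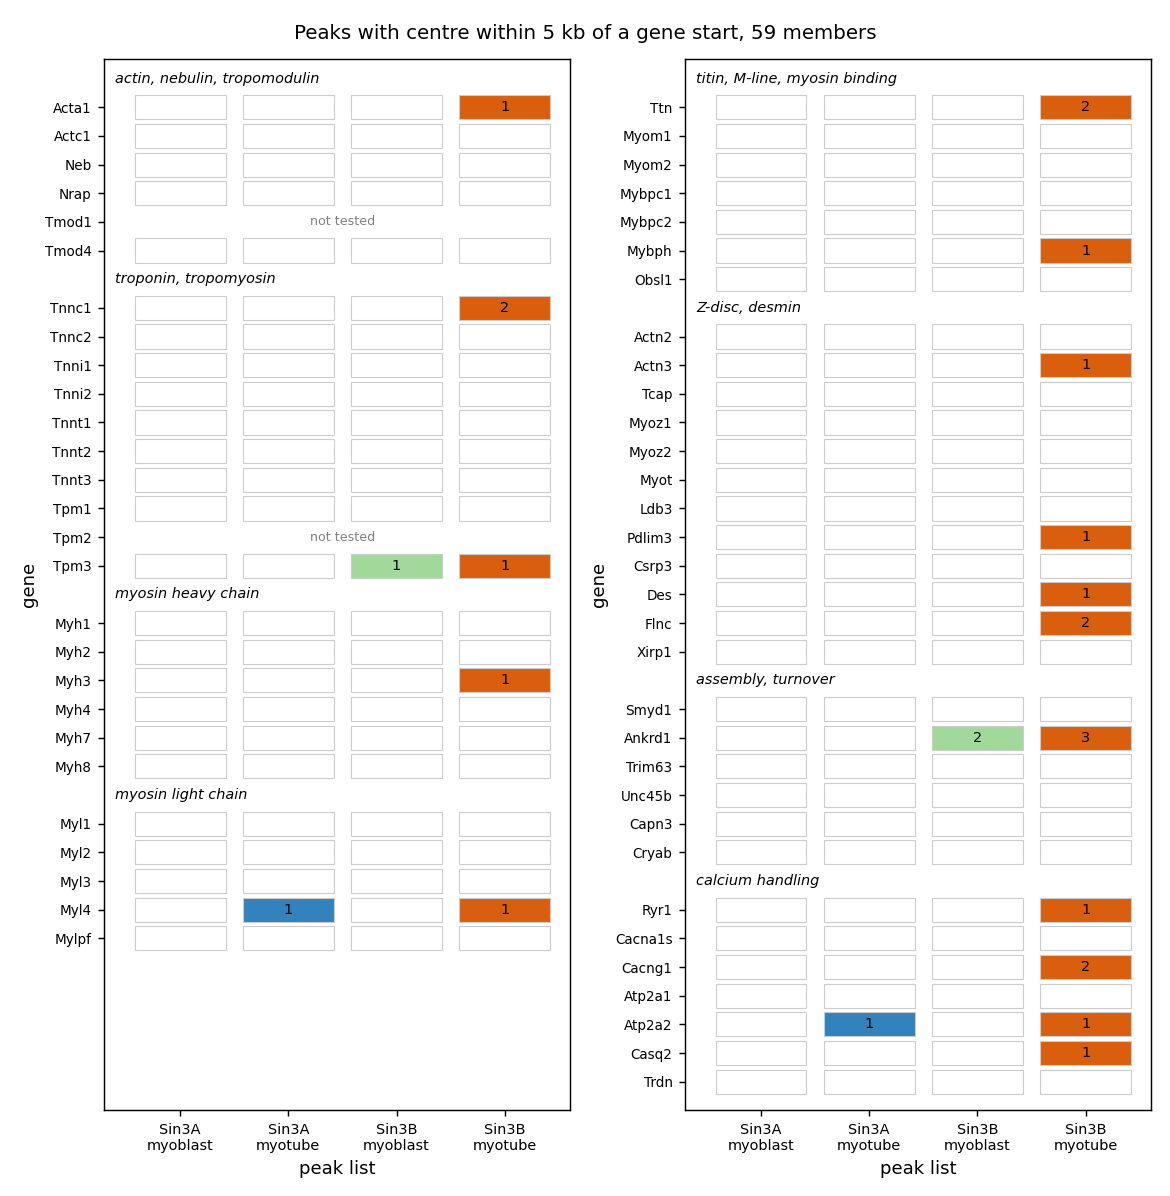
Number of peaks with a centre within 5 kb of a gene start, for each of the 59 members (rows, by role) in each of the 4 peak lists (columns), with white cells for no peak. The 16 members with a peak all have 1 or more in the Sin3B myotube column, and Ankrd1 has the most there, with 3.

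Between the stages, the members' Sin3B peaks lay on the myotube side. A Sin3B peak in myotubes and none in myoblasts was found at 14 of 57 members (24.6%), where 9.8% of all genes had that pattern. The reverse, a Sin3B peak in myoblasts alone, was found at 0 members (3.42% of all genes), and Sin3B peaks at both stages at 2 members (3.51%, with 8.76% of all genes). The Sin3B myotube list was the only list with a peak at 12 members (21.1%, with 7.85% of all genes), namely Acta1, Tnnc1, Myh3, Ttn, Mybph, Actn3, Pdlim3, Des, Flnc, Ryr1, Cacng1 and Casq2. The Sin3B myotube list is longer than the Sin3B myoblast list, and across all genes the share also went from 12.2% to 18.6%, so list length and stage cannot be told apart from the lists as they are. When both Sin3B lists were reduced to the length of the shortest list by taking the widest peaks, 5 members kept a Sin3B myotube call (8.77%, with 4.13% of all genes), namely Tnnc1, Myl4, Ttn, Flnc and Atp2a2. None of the 57 then had a Sin3B myoblast call, where 4.18% of all genes did.

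**Figure D2:**
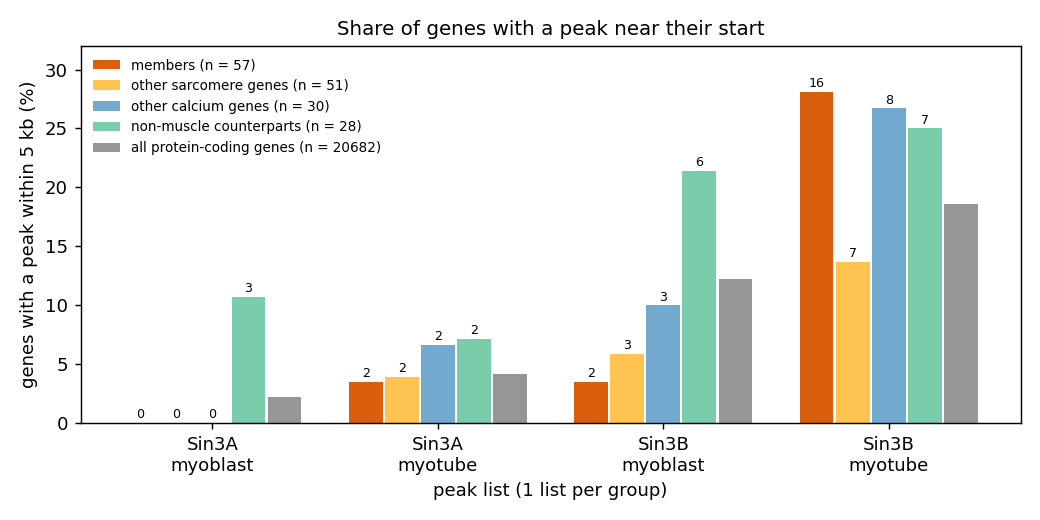
Share (%) of tested genes with a peak centre within 5 kb of a start, in each of the 4 peak lists, for the members, 3 lists of related genes and all protein-coding genes; numbers above bars are genes called. The members are at 3.51% in Sin3B myoblasts and at 28.1% in Sin3B myotubes, below and above the 12.2% and 18.6% of all protein-coding genes.

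Among the genes of the thin filament, 3 of 14 tested members were bound by Sin3B in myotubes, near the 18.6% of all genes. Acta1, the actin of adult skeletal muscle, had 1 peak, at chr8:126416677-126417129, which is 453 bp wide and centred 1.75 kb downstream of the start, inside the gene. No other gene start lies within 33.6 kb of that peak. Its cardiac counterpart Actc1 had no peak in any list, and its nearest Sin3B myotube peak, 122 kb away, lies at Aqr. Neb (nebulin, the ruler of thin filament length), Nrap (a nebulin-related anchor) and Tmod4 (a cap of the pointed end) had none either.

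In the troponin and tropomyosin group, 2 of 9 tested members had a Sin3B myotube peak (22.2%, near the 18.6% of all genes). Tnnc1, the calcium sensor of slow muscle, had a 907 bp peak at chr14:32021517-32022423, centred 0.439 kb downstream of its start and at percentile 89.0 of the widths of its list. A second peak of 376 bp, at chr14:32019524-32019899, counts for Tnnc1 at 1.82 kb upstream but lies nearer to the start of Nisch, at 0.333 kb. Tpm3, the slow alpha-tropomyosin, which non-muscle cells also make from other starts of the gene, was bound in both Sin3B lists. Its myoblast peak, chr3:89883791-89884248, was 458 bp wide and its myotube peak, chr3:89883725-89883992, was 268 bp wide, at percentile 3.98 of the widths in that list. The 2 Tpm3 peaks overlap and lie 0.599 and 0.438 kb downstream of the second start in the table, 6.87 kb from the first.

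The other troponins and tropomyosins had no peak in any list. This holds for the fast troponin C gene Tnnc2, the inhibitory subunits Tnni1 and Tnni2, the tropomyosin-binding subunits Tnnt1, Tnnt2 and Tnnt3, and Tpm1. With a shift fitted to the peaks within 2.5 Mb, Tnnt3 gained a Sin3B myoblast call. Tnnc2 came nearest to a call, since a Sin3B myotube peak lies 9.65 kb from its start, but that peak is 0.156 kb from the start of Ube2c. Tnni2 and Tnnt3, which are neighbours on chromosome 7, share their nearest Sin3B myotube peak, at Mrpl23, 88.9 and 17.1 kb away. Tnni1, Tnnt2 and the calcium channel gene Cacna1s lie near each other on chromosome 1 and also share theirs, at Phlda3, at 32.6, 69.5 and 286 kb.

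Among the myosin heavy chains, which are the motors of the thick filament, Myh3 alone of 6 was bound. This share of 16.7% is near the 18.6% of all genes with Sin3B in myotubes. Myh3 encodes the embryonic heavy chain, and its Sin3B myotube peak, chr11:66894591-66894923, is 333 bp wide and centred 3.1 kb downstream of the start, inside the gene. Myh2, Myh1, Myh4 (fast adult chains) and Myh8 (the perinatal chain) lie beyond Myh3 in the same cluster on chromosome 11 and had no peak of their own. Their nearest Sin3B myotube peak is the Myh3 peak, at 89.6, 119, 156 and 196 kb. Myh7, the slow and cardiac chain, had its nearest at 111 kb, beside Bcl2l2.

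Of 5 myosin light chain genes, Myl4 was bound, in both myotube lists. For Sin3B in myotubes, 1 of 5 is near the 18.6% of all genes. Both proteins in myotubes were found at 3.59% of all genes, and in this group at Myl4 alone. The Sin3B peak, chr11:104410711-104411502, is 792 bp wide and the Sin3A peak, chr11:104411113-104411457, is 345 bp wide and overlaps it. Their centres lie 0.73 and 0.552 kb upstream of the Myl4 start, and both are slightly nearer to a start of Cdc27, a cell cycle gene, at 0.687 and 0.509 kb. Those differences are smaller than the uncertainty of the placement, so the peaks cannot be assigned to 1 of the 2 genes. Myl2, Myl3 and Mylpf had no peak. Myl1, the fast essential light chain gene, had none near its start in the table, but a Sin3B myotube peak of 451 bp, chr1:66980713-66981163, lies inside the gene 10.7 kb from that start. Myl1 is known to make its shorter product from a second, internal promoter. The table gives no start there, so the peak was not counted. Its placement is unsure, since only 3 peaks lie within 2 Mb of Myl1, of which 2 fell at a gene start. The shift of its block, -46000 bp, is shared with no neighbouring block, and the block before it has -57000 bp. These shifts differ by about as much as the peak's distance from the start. With blocks of 5 Mb, Myl1 could not be tested. Whether the peak lies at the internal promoter was not tested.

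In the group of titin, M-line and myosin-binding proteins, Ttn and Mybph were bound out of 7 (28.6%, with 18.6% of all genes). Ttn, the giant elastic filament that spans from Z-disc to M-line, had 2 Sin3B myotube peaks. The wider one, chr2:76819138-76820135, covers 998 bp at percentile 92.5 of the widths and is centred 0.809 kb downstream of the start, and the narrower one, chr2:76820262-76820582, covers 321 bp and is centred 0.024 kb from the start. Mybph had 1 peak of 647 bp, chr1:136090179-136090825, centred 0.386 kb downstream. Myom1 and Myom2 (myomesins, which crosslink thick filaments at the M-line), Mybpc1 and Mybpc2 (slow and fast myosin binding protein C) and Obsl1 (an obscurin-like M-line protein) had none in any list.

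The Z-disc and intermediate filament group had 4 of 12 members bound (33.3%, with 18.6% of all genes), all 4 in the Sin3B myotube list alone (7.85% of all genes). Des, the muscle intermediate filament, had a 399 bp peak, chr1:75357102-75357500, at 0.316 kb downstream, in a stretch where 13 of the 26 peaks within 2 Mb fell at a gene start. Pdlim3, an alpha-actinin binding PDZ-LIM protein, had a 431 bp peak, chr8:46970791-46971221, at 0.269 kb downstream. Both peaks are narrower than the median of the list, which is 545 bp. Flnc, a crosslinker of actin at the Z-disc, had 2 peaks, chr6:29383292-29384115 of 824 bp at 0.364 kb and chr6:29384271-29384555 of 285 bp at 1.07 kb downstream. Actn3, the alpha-actinin of fast fibres, had a 600 bp peak, chr19:4878172-4878771, at 0.562 kb outside 1 end of the gene, but the start of Zdhhc24 is nearer, at 0.197 kb. The strand of Actn3 is not in the table, so whether that end is its start is not known here.

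No peak in any list was found at the other Z-disc members. These are Actn2 (the other muscle alpha-actinin), Tcap (telethonin, the titin cap), Myoz1 and Myoz2 (calcineurin-binding calsarcins), Myot (myotilin), Ldb3 (an alpha-actinin binding PDZ-LIM protein), Csrp3 (muscle LIM protein) and Xirp1 (a Xin actin-binding repeat protein). Their nearest Sin3B myotube peaks lie between 15.5 kb (Tcap, a peak at Pgap3) and 1820 kb (Myot).

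Among the assembly, turnover and stress genes, Ankrd1 was the only one bound of 6, and it had the most peaks of any member. This share of 16.7% lies beside 18.6% of all genes in Sin3B myotubes and 12.2% in Sin3B myoblasts. In myoblasts it had 2 Sin3B peaks, chr19:36191268-36191758 (491 bp) and chr19:36193272-36193727 (456 bp), at 2.74 and 0.751 kb downstream of the start. In myotubes it had 3, chr19:36191513-36191998 (486 bp), chr19:36192369-36192727 (359 bp) and chr19:36193394-36194146 (753 bp), at 2.5, 1.7 and 0.481 kb. The outer 2 myotube peaks overlap the 2 myoblast peaks, and the middle one overlaps none. All 5 lie inside the gene. Smyd1 and Unc45b (which act in myosin folding and assembly), Trim63 (the ubiquitin ligase MuRF1), Capn3 (a muscle protease bound to titin) and Cryab (a small heat shock protein that protects desmin) had no peak.

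In the calcium handling group, 4 of 7 members had a Sin3B myotube peak (57.1%, with 18.6% of all genes). The calls at Cacng1 and Atp2a2 rest on a gene end that may not be the start, since the table gives no strand for them, and both are lost when only strand-known starts are used. Ryr1, the calcium release channel of the sarcoplasmic reticulum, had a 608 bp peak, chr7:29909559-29910166, at 0.296 kb downstream. Casq2, which stores calcium in that compartment and is the slow and cardiac form, had a 679 bp peak, chr3:101890912-101891590, at 1.76 kb downstream. The placement of that peak is less sure than most, since 40.0% of the peaks within 2 Mb of Casq2 fell at a gene start. Cacng1, a subunit of the voltage sensor channel, had 2 peaks inside 1 gene end, chr11:107577103-107577361 (259 bp, at 0.418 kb) and chr11:107576268-107576652 (385 bp, at 1.19 kb).

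Atp2a2, the calcium pump SERCA2 of slow and cardiac muscle and of most other cells, had the widest peak at any member. Its Sin3B myotube peak, chr5:122951010-122952196, spans 1187 bp, at percentile 97.0 of the widths, and its Sin3A myotube peak, chr5:122951499-122952239, spans 741 bp, at percentile 93.0. The 2 Atp2a2 peaks overlap inside 1 gene end, at 0.651 and 0.385 kb. The fast pump gene Atp2a1 had no peak in any list, and its nearest Sin3B myotube peak, 40.1 kb away, lies at Atxn2l. Cacna1s (the pore of the voltage sensor) and Trdn (triadin, which links calsequestrin to the release channel) had none either.

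Most peaks at members sat inside the genes, downstream of the start. Of the 22 Sin3B myotube peaks at the 16 members, 20 lie inside the gene as the table bounds it, 3 are nearer to the start of another gene (at Tnnc1, Myl4 and Actn3), 2 overlap a Sin3A myotube peak and 3 overlap a Sin3B myoblast peak. The Myl4 peak is among the 20 although it is upstream of the Myl4 start, because the table's bounds of Myl4 begin farther upstream than that start. No shares over all Sin3B myotube peaks are set beside these counts, so they describe the members' peaks alone. For the 13 bound members with a strand in the table, 16 of 18 Sin3B myotube peaks were centred downstream (88.9%, with 68.6% across all genes). Their median distance from the start, without regard to side, was 605 bp, where it was 270 bp over all genes, and 61.1% were within 1 kb, where 88.7% were over all genes. The peaks beyond 1 kb are those of Acta1, Myh3, Casq2, 2 at Ankrd1, 1 at Flnc and 1 at Tnnc1. More than 1 Sin3B myotube peak was found at Tnnc1, Ttn, Flnc and Ankrd1, 4 of 13 (30.8%), where 9.74% of all genes with a peak had more than 1. The widths did not stand out in the same way: the 22 peaks ran from 259 to 1187 bp with a median of 469.5 bp, and 10 of them were wider than the list's median of 545 bp.

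**Figure D3:**
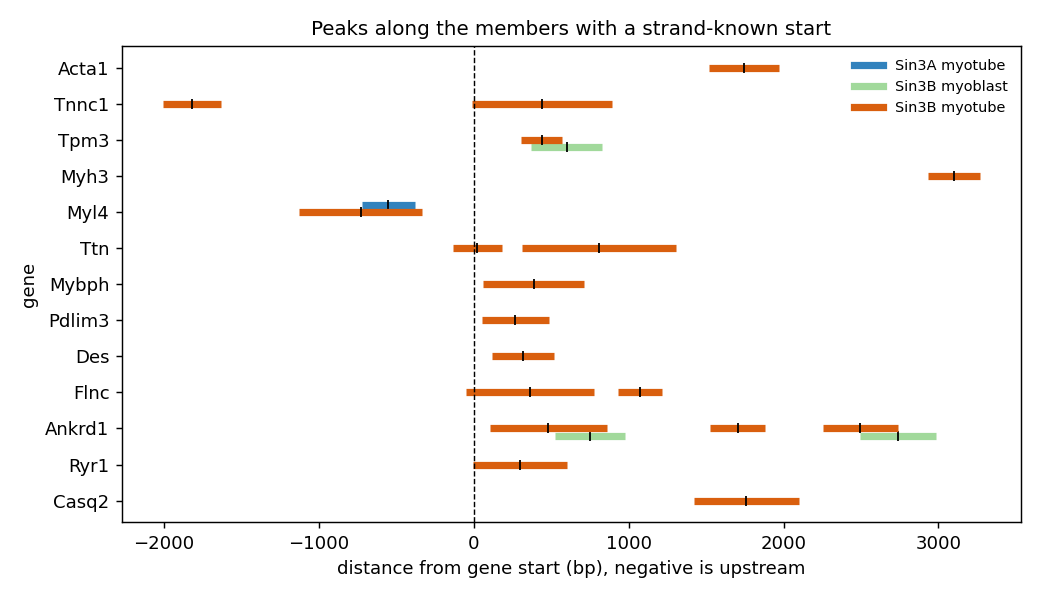
Extent of each peak along the 13 bound members with a strand-known start, as distance from the start in bp with upstream negative; bars are peaks, ticks their centres, and colours the peak lists. Of the Sin3B myotube peaks, 16 of 18 are centred to the right of the start, and those of Acta1, Casq2 and Myh3 lie 1.75, 1.76 and 3.1 kb into the gene.

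Most of the members without a Sin3B myotube call had no peak of that list within 50 kb, and neither did most of all genes. For the 41 members with no call in Sin3B myotubes, the nearest peak of that list was at a median of 89.6 kb (9.65 to 1820 kb). It lay within 50 kb for 14 of them, and in 13 of these it was within 1 kb of the start of another gene. The exception is the peak inside Myl1, whose placement is unsure. Of all 57 members, 7 had their nearest Sin3B myotube peak at 5 to 20 kb, 7 at 20 to 50 kb and 27 beyond 50 kb. Of 20682 genes, 1336, 2208 and 13297 did. In Sin3B myoblasts, 55 members had no call and the nearest peak was at a median of 122 kb (9.26 to 1990 kb). Over all 57 members the median distance to the nearest peak was 118 kb in Sin3B myoblasts and 40.1 kb in Sin3B myotubes, and over all genes 202 and 115 kb. Sin3A peaks were farther, at a median of 662 kb in myoblasts and 845 kb in myotubes, where the medians over all genes were 1010 and 819 kb. When each peak was assigned only to the gene with the nearest start, Actn3 and Myl4 lost their Sin3B myotube calls, which left 14 of 57 (24.6%, with 15.0% of all genes).

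The promoters of the members differ in composition from those at which Sin3B was usually found. The CpG ratio, the number of CpG dinucleotides over the number that the C and G content would give, was computed in the 250 bases before the start, for the 44 tested members and 16565 tested genes with a promoter in the RefSeq table. Members with a peak were scored at the start nearest their peak, and all other genes, bound or not, at their first start. Tpm3 and Flnc were thus scored at a second start, 6.87 and 0.103 kb from the first. The motif counts below and the printed Flnc sequence use the same starts. A ratio of 0.6 or more, a usual mark of CpG islands, was found in 46.0% of all genes and in 81.8% of the 3090 genes with Sin3B in myotubes. Among the members it was found in 5 of 44 (11.4%), namely Flnc, Myl4, Tpm3, Tpm1 and Mybpc1, and in 3 of the 13 with Sin3B in myotubes (23.1%), namely Flnc (0.652), Myl4 (0.92) and Tpm3 (0.63). The median ratio was 0.362 in these 13 members, where it was 0.805 in all genes with Sin3B in myotubes, and 0.283 in the 31 members without, where it was 0.434 in all genes without. The promoters printed above show the 2 ends of this range, from Tnnc1 and Mybph with no CpG to Flnc and Myl4.

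**Figure D4:**
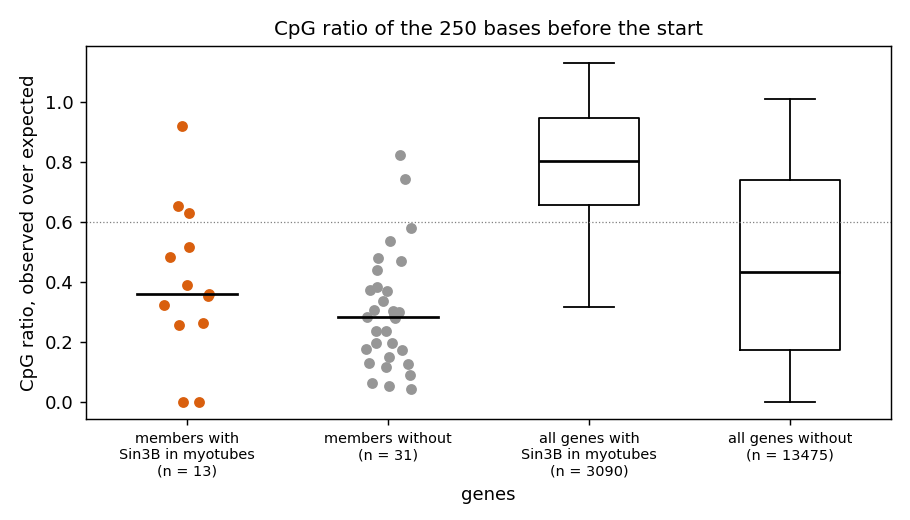
CpG ratio (observed over expected) of the 250 bases before the start. Points are members with and without a Sin3B myotube peak, with their median as a bar; boxes give the median and quartiles of all genes, with whiskers from the 5th to the 95th percentile, and the dotted line is at 0.6. Of the 13 members with Sin3B, 10 lie under the line, while the box of all genes with Sin3B lies above it.

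Among promoters with a ratio under 0.6, Sin3B in myotubes was found at 10 of 39 members (25.6%) and at 6.29% of 8948 genes in all. Those 10 members are Acta1, Tnnc1, Myh3, Ttn, Mybph, Pdlim3, Des, Ankrd1, Ryr1 and Casq2. Counting only peaks nearest to the gene itself left all 10 (25.6%) and 4.91% of all such genes. The stages differed here too: a Sin3B peak in myotubes and none in myoblasts was found at 9 of the 39 (23.1%, with 3.71% of all such genes), and a Sin3B myoblast peak at 1, Ankrd1 (2.56%, with 4.31%). With a ratio of 0.6 or more, 3 of 5 members had Sin3B in myotubes, where 33.2% of all such genes did. Here, counting only peaks nearest to the gene itself left 2 of 5 (40.0%), without Myl4, and 27.6% of all such genes. The comparison is one of shares, with no test, and the genes of the background include other muscle genes.

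Motifs of muscle regulators were more frequent in the members' promoters than in all promoters of the same length, whether or not Sin3B was found there. On either strand of the 250 bases, the E-box CAGCTG was found in 17 of 44 members (38.6%) and 11.7% of all genes, the MCAT motif CATTCC in 16 (36.4%) and 11.4%, a MEF2 motif in 7 (15.9%) and 1.67%, and a CArG box in 6 (13.6%) and 1.42%. The general E-box CANNTG, of which CAGCTG is 1 form, was found in 36 (81.8%) and 62.8%. The GC box GGGCGG was found in 13 (29.5%) and 43.4%. Between members with and without Sin3B in myotubes the counts were 4 of 13 and 13 of 31 for CAGCTG, 6 and 10 for CATTCC, 2 and 5 for MEF2, 1 and 5 for CArG, and 6 and 7 for GGGCGG. The bound members with a MEF2 motif are Ttn, at 166 bases before the start, and Casq2. Those with CAGCTG include Mybph at 79 and Pdlim3 at 139 bases, and Myh3 has a TATAAA at 29 bases.

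The other genes of the same structures were taken from 3 lists. Of 51 other sarcomere genes, 7 had a Sin3B myotube peak (13.7%) and 3 a Sin3B myoblast peak (5.88%), so this list was below all genes at both stages, unlike the members in myotubes. Vcl (vinculin) had peaks in 3 lists, and its Sin3B myotube peak of 1221 bp at 0.631 kb is wider than any member's. Cfl2, the muscle cofilin, had a Sin3A peak and 2 Sin3B peaks in myotubes, and the Myl6b calls rest on peaks that lie nearer to Myl6. Of 30 other calcium handling genes, 8 (26.7%) had a Sin3B myotube peak and 3 (10.0%) a Sin3B myoblast peak, where all genes were at 18.6% and 12.2%. Among these were Jph1, a junctophilin that ties the reticulum to the surface membrane, with Sin3A and Sin3B peaks in myotubes, and Cacnb1, a channel subunit with a 1066 bp Sin3B myotube peak at 0.535 kb and 3 further peaks nearer to Rpl19.

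Some of the non-muscle counterparts of the members had Sin3B at both stages. Of 28 tested, 6 (21.4%) had a Sin3B myoblast peak and 7 (25.0%) a Sin3B myotube peak, where all genes were at 12.2% and 18.6%. Both stages had a peak at 4 of them (14.3%), with the members at 3.51% and all genes at 8.76%, and 3 (10.7%, with 2.22% of all genes) had a Sin3A myoblast peak. Myh9, the non-muscle myosin heavy chain, had peaks in all 4 lists, whereas Myh3 was bound in 1. Myl6 and Myl12a, non-muscle light chains, had overlapping Sin3B peaks at both stages. Capn2, a widely expressed calpain, had Sin3B peaks at both stages that do not overlap. They lie 0.341 kb downstream of its start in myoblasts and 3.2 kb upstream in myotubes. Actg1, a cytoplasmic actin, had Sin3A and Sin3B peaks in myotubes. Vim (vimentin, the intermediate filament of myoblasts) had a Sin3A peak and 2 Sin3B peaks in myoblasts and none in myotubes, the reverse of Des, which had a Sin3B peak in myotubes alone. With 1 list per group, these differences between gene lists were not tested.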

How the data were processed

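Sin3A and Sin3B ChIP-seq was done in C2C12 myoblasts and myotubes. The authors deposited peak positions only (chromosome, start and end per peak, no score); the peak caller, its threshold, the genome build and any pooling of samples are not stated in the labels. Library fragments of about 350 bp came from 18 PCR cycles, per the labels' protocols. Files of samples of 1 group are identical and were counted once. Lists in the files' build were placed on RefSeq GRCm38.p6 gene starts: for each 10 Mb block, the shift (up to 8 Mb either way, in 1 kb steps) that put most peak centres of all lists within 1 kb of a start was added, and the block was kept if this reached 50%. This kept 258 of 267 blocks and 7342 of 7606 peaks (96.5%). A gene was called when a peak centre lay within 5 kb of a start. For genes with no strand in the tables (13 members) both gene ends were used. Printed distances use a finer shift per block, the offset that centres the peaks on starts of both strands. Motifs were searched on both strands, and promoter sequences are RefSeq's (46 of 59 members matched by symbol). No statistical test was run, since each group has 1 list; depth is unknown. All members are named, bound members with each peak, and genes of the related lists where at least 2 lists called them, except 1 that is not reported here. Members and lists were chosen with earlier results of these data known. Tools were Python 3.11.15, numpy 2.4.6, pandas 2.3.3 and matplotlib 3.10.9.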

Additional observations from a re-analysis of the deposited data

How the results depend on the processing

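Of 84 comparisons of a members' count with its value under 14 alternatives, 4 of them chosen after seeing the data, 74 stayed within 1.5 times. The Sin3A myoblast count was 0 in all 14, and many other counts are 0 to 3. Several counts also rest on the same calls, so the 74 says little about stability. The Sin3B myotube count ran from 5 to 17, above the share of all genes in all 14, and the Sin3B myoblast share was below that of all genes in all 14. With only peaks of at least the median width of their list, Sin3B in myotubes had 10 members (17.5%, with 10.3% of all genes). Sin3A in myotubes then had 1 (1.75%, with 2.05% of all genes). Sin3B in myoblasts and at both stages then had 0, with 6.95% and 3.82% of all genes. With lists of equal length, Sin3B in myotubes had 5 members, all 5 without a myoblast peak (8.77%, with 2.65% of all genes). Sin3B in myoblasts and at both stages then had 0, with 4.18% and 1.48% of all genes. Sin3A in myotubes also had 1 member with strand-known genes only (2.27%, with 4.16% of all such genes). It had 1 when a peak counted for the nearest gene only (1.75%, with 3.21% of all genes). A 1 kb window left 13 members in Sin3B myotubes (22.8%, with 16.4% of all genes), without Acta1, Myh3 and Casq2. With no minimum for blocks, Tpm2 also had a Sin3B myotube peak. By the share of peaks within 2 Mb that fell at a start, placement is least sure near Cryab (16.7%), Actc1 (33.3%) and Casq2 (40.0%). It is also unsure where the next best shift of a block placed nearly as many peaks. Such blocks are those of Neb (9 against 9), Tnnt1 (9 against 8), Myom1 (18 against 16) and Obsl1 (22 against 19), so the lack of a peak there is unsure too. No replicate could be left out, since the files of a group are identical. No paired analysis was possible because each group has 1 distinct list and no result comes from a test. Depth, which would set how many sites a list can hold, is unknown.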
